A study of Mus musculus with 12 samples.

Results

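The genes described here are 10 of the 53379 gene identifiers counted in each library of a mouse brown fat study: the vascular endothelial growth factor (VEGF) ligands Vegfa and Vegfb, the angiopoietin ligands Angpt1 and Angpt2, the receptors Kdr, Flt1, Tek and Tie1, and the endothelial surface proteins Pecam1 and Cdh5. They were chosen by name and matched to the Ensembl identifiers of the count files through the GRCm38 annotation; all 10 were matched and all 10 were among the 15208 genes tested. RNA came from interscapular brown fat of C57BL/6 mice aged 12 weeks, which were killed at zeitgeber time 9, a time on the facility's light clock. The groups were CDK7 bKO mice (KO, a knockout of Cdk7 restricted to brown adipose tissue) after 6 h of cold with food, wild-type control littermates (WT) after the same cold exposure, KO mice at room temperature and WT mice at room temperature. Each group held 3 libraries, and each library pooled RNA from 2 mice, 250 ng from each, so that the mice within a pool cannot be separated. The driver of the deletion, the alleles the WT littermates carried, the sex of the mice and the temperature of the cold room are not given in the sources used here. Libraries held between 27609717 and 36792555 reads counted in genes.

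Blood vessels grow and stay intact through a pair of ligand and receptor systems. VEGF-A, which fat cells secrete, drives endothelial division and permeability through the tyrosine kinase KDR, while FLT1 binds VEGF-A and VEGF-B more tightly with less kinase signalling and can act as a decoy. Angiopoietin-1, released by cells around the vessel, activates the receptor TEK (also called TIE2) and quietens the endothelium, angiopoietin-2 is stored and released by endothelial cells and can block that signal, and TIE1 is a partner of TEK with no angiopoietin of its own. PECAM1 and the cadherin encoded by Cdh5 sit at the junctions between endothelial cells. Brown fat is densely supplied with capillaries, which bring it oxygen and fuel for heat production, and noradrenaline released in the cold is known to raise Vegfa in it. CDK7 is the kinase of the general transcription factor TFIIH and of the CDK-activating complex.

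Promoter sequence is shown for the VEGF ligands Vegfa and Vegfb, which were lower in KO than in WT in the cold, and for the receptors Flt1 and Tek, which were higher. Each is the 250 bases before the start site in RefSeq's GRCm38.p6 annotation, read in the direction of the gene. RefSeq start sites were at hand for 6 of the 10 genes, and Vegfa had 2 of them. Capitals mark matches to 6 motifs searched on both strands, with the share of 32851 promoter windows of that length that held each. The core of the hypoxia response element, ACGTG, was in 16.6% of windows, and the core of the cAMP response element, TGACG, was in 17.8%. The site of estrogen-related receptors was searched as AAGGTCA and was in 4.08%. The ETS motif was searched as AGGAAG and was in 29.5%. For GATA factors the letters were AGATAA, which 9.99% of windows held. The Sp1 motif was searched as GGGCGG and was in 32.7%.
Vegfa, chr17:46032378-46032627, minus strand: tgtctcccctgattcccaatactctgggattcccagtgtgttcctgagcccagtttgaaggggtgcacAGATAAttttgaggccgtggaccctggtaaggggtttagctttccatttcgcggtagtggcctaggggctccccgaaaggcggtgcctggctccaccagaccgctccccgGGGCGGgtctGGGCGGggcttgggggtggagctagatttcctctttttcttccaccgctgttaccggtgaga
Vegfb, chr19:6987652-6987901, minus strand: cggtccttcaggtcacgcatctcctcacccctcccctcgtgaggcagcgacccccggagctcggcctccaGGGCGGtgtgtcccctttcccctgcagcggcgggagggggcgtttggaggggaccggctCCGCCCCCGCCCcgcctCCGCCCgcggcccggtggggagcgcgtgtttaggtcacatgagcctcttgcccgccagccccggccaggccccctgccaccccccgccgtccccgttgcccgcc
Flt1, chr5:147726012-147726261, minus strand: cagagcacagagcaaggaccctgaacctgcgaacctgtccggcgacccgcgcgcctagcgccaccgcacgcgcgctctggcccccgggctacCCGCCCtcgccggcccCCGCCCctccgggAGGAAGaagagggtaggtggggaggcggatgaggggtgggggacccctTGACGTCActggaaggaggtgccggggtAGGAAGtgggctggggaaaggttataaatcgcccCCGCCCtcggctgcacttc
Tek, chr4:94739039-94739288, plus strand: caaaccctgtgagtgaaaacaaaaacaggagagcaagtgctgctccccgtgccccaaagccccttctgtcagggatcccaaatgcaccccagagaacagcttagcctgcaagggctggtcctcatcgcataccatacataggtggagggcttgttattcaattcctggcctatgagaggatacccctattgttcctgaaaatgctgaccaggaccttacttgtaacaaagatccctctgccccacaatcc
The Vegfa window held the Sp1 motif at positions -72 and -62 and the GATA motif at -182, counted from the start site. The window of the other Vegfa start, which lies within the gene at chr17:46025164-46025413 and overlaps annotated Vegfa exons, is not printed; it held the hypoxia response core at -211, the cAMP response core at -209, overlapping it, and the Sp1 motif at -158. In the Vegfb window the Sp1 motif occurred at -180, -121, -115 and -104, and the copies at -121 and -115 run into each other on the opposite strand. Flt1 carried the cAMP response core on both strands, at -81 and -78, overlapping as a palindrome, with the ETS motif at -129 and -53 and the Sp1 motif at -158, -142 and -19. None of the 6 motifs was in the Tek window. These matches describe letters only; no binding was measured.

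Cdk7 itself averaged 5.21 ± 0.309 CPM (the count scaled to the library's size) in KO mice in the cold and 16.6 ± 1.2 CPM in WT mice in the cold (SD, n = 3 each), and 5.09 ± 0.712 CPM in KO mice at room temperature against 15.9 ± 0.72 CPM in WT mice at room temperature. CPM values throughout are scaled with TMM factors (0.798 to 1.18), which centre each library on the bulk of its genes. The KO pools held 4.35 to 5.77 CPM of it and the WT pools 15.1 to 18.0 CPM, with no overlap. Ucp1, the heat-producing uncoupling protein that defines brown fat, had 3723 to 4283 CPM in KO cold, 14787 to 17543 CPM in WT cold, 3608 to 4395 CPM in KO room-temperature and 6627 to 8501 CPM in WT room-temperature pools. Skeletal muscle transcripts stood out in a room-temperature pool of each genotype: 15 muscle genes summed to 1413 CPM in KO pool 6 and 1078 CPM in WT pool 2, against 39.7 to 481 CPM in the other 10 pools. Results at room temperature are therefore also given without those pools. Such fits hold fewer room-temperature pools of each genotype. Whether a call was lost through the smaller groups or through muscle was not tested. In whole tissue, fewer cells of a type and less RNA per cell cannot be told apart.

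In the cold, KO brown fat had less Vegfa, Vegfb and Angpt2 and more Angpt1, Flt1, Tek, Tie1, Pecam1 and Cdh5 than WT brown fat, and Kdr was not called. Of the 10 genes, 9 passed the test (edgeR's quasi-likelihood test, Benjamini-Hochberg adjusted p under 0.05 over all genes), 6 of them higher and 3 lower in KO; over all 15208 genes 53.7% passed, 25.9% higher and 27.8% lower. At room temperature 6 of the 10 passed, 4 higher and 2 lower in KO, beside 40.4% of all genes, 19.3% higher and 21.0% lower. Cold against room temperature moved 7 of the 10 in WT mice, 3 up and 4 down, with 46.3% of all genes called, 23.0% up and 23.2% down. In KO mice cold moved 3 of the 10, 1 up and 2 down, with 14.8% of all genes called, 7.29% up and 7.56% down. The cold response itself differed between genotypes for 5 of the 10, 3 with a difference (KO minus WT) above 0 and 2 below, with 23.5% of all genes called, 10.6% above and 12.9% below. Shares of calls this high across the genome mean that passing the test does not by itself mark these genes out. The 4 pairwise comparisons share their groups, so that a group's level enters 2 of them.

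**Figure D1:**
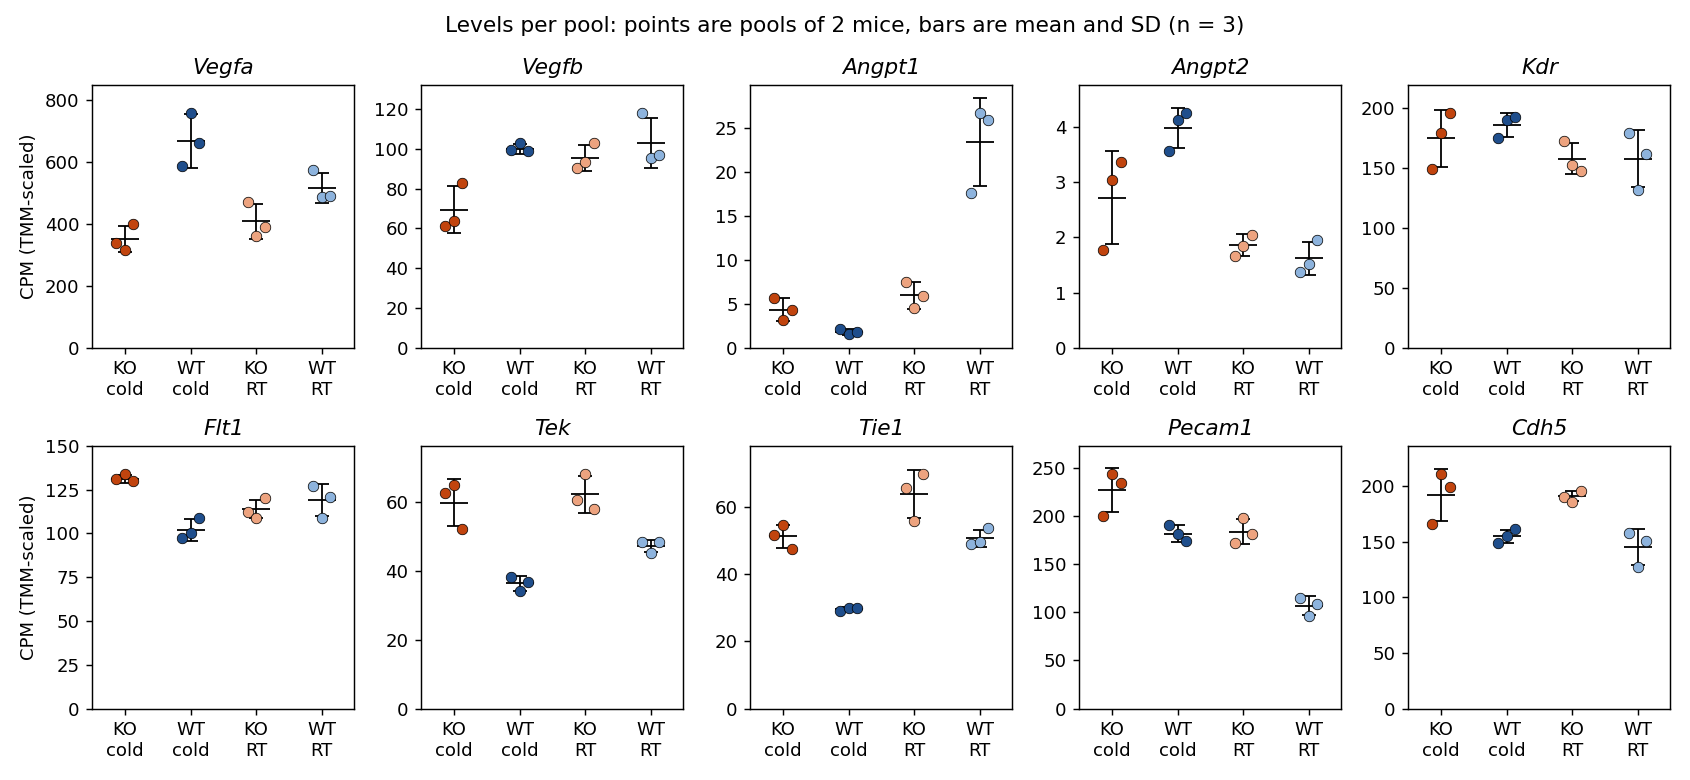
Level of each gene in CPM (vertical axes, linear from 0) in every pool, with KO cold, WT cold, KO room temperature (RT) and WT RT from left to right; points are pools of 2 mice and bars are the mean and SD of 3 pools. Vegfa in the cold lies between 317 and 399 CPM in KO and between 585 and 757 CPM in WT, and Angpt1 lies between 17.6 and 26.7 CPM in the WT room-temperature pools and between 1.54 and 7.53 CPM in the 9 others.

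Set per kilobase of exon (RPKM), which lets different genes be compared, Vegfa was the most abundant of the 10 in every group, with 81.9 ± 10 RPKM in KO cold, 156 ± 20.2 in WT cold, 95.1 ± 13 in KO at room temperature and 120 ± 11.4 in WT at room temperature (SD, n = 3 each). Vegfb and Cdh5 followed. In KO cold they lay within their spread of each other, with Cdh5 at 45.7 ± 5.61 RPKM and Vegfb at 43.3 ± 7.41 RPKM. In WT cold they were apart, with Vegfb at 62.6 ± 1.44 RPKM and Cdh5 at 36.8 ± 1.41 RPKM. Pecam1 came next, at 36.4 ± 3.71 RPKM in KO cold, 29.2 ± 1.38 in WT cold and 29.5 ± 2.1 in KO at room temperature; in WT at room temperature it had 17.1 ± 1.58 RPKM, level with Kdr at 17.4 ± 2.67 RPKM. Tek, Tie1 and Flt1 lay between 6.01 and 13.2 RPKM on average. Tek and Tie1 did not differ beyond their spread in KO at room temperature (13.2 ± 1.14 and 12.9 ± 1.45 RPKM) or in WT at room temperature (10.1 ± 0.381 and 10.3 ± 0.523 RPKM). The angiopoietins were the least abundant. Angpt1 ranked above Angpt2 at room temperature in both genotypes, the means were close in KO cold (0.838 ± 0.247 RPKM for Angpt1 and 0.738 ± 0.228 for Angpt2), and in WT cold Angpt2 at 1.08 ± 0.0994 RPKM was above Angpt1 at 0.353 ± 0.0611 RPKM.

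Vegfa (ENSMUSG00000023951, chr17:46016993-46032369, minus strand) encodes the main growth factor for endothelium. It had 337, 317 and 399 CPM in the KO cold pools, against 585, 757 and 659 CPM in the WT cold pools. At room temperature it had 470, 362 and 391 CPM in KO pools, against 572, 486 and 489 CPM in WT pools. The genotypes did not overlap at either temperature. Vegfa was 1.9-fold lower in KO than in WT in the cold (log2 fold change -0.93 ± 0.12 SE, adjusted p = 1.2e-05). At room temperature it was 1.27-fold lower in KO (-0.34 ± 0.12, adjusted p = 0.034). Cold raised it 1.29-fold in WT mice (0.37 ± 0.12, adjusted p = 0.019), with every cold pool above every room-temperature pool, while in KO mice the fitted change was -0.22 with overlapping pools (adjusted p = 0.25). The difference between those cold responses was -0.59 ± 0.17 (adjusted p = 0.02). The cold difference between genotypes held in all 23 alternative fits, but the smaller effects did not. Under library totals alone the cold difference between genotypes was -0.49, and 3 calls were lost: at room temperature (-0.12, adjusted p = 0.43), for the rise in WT (0.18, adjusted p = 0.2) and for the difference of responses (-0.37, adjusted p = 0.1). The room-temperature call was also lost with a strict filter (-0.31, adjusted p = 0.054), with only the libraries compared (-0.33, adjusted p = 0.052), and without WT pool 1 (-0.26, adjusted p = 0.12), KO pool 5 (-0.26, adjusted p = 0.13), KO pool 6 (-0.31, adjusted p = 0.1) or both muscle-rich pools (-0.35, adjusted p = 0.12). The rise in WT was lost without WT room-temperature pool 2 (0.33, adjusted p = 0.073) or 3 (0.33, adjusted p = 0.074), WT cold pool 2 (0.27, adjusted p = 0.12) or both muscle-rich pools (0.33, adjusted p = 0.086). The difference of responses was lost without WT room-temperature pool 2 (-0.55, adjusted p = 0.053) or 3 (-0.53, adjusted p = 0.059), WT cold pool 2 (-0.47, adjusted p = 0.078), KO cold pool 1 (-0.56, adjusted p = 0.052) or 2 (-0.52, adjusted p = 0.061), or both muscle-rich pools (-0.57, adjusted p = 0.074). Gene counts sum over the splice forms of Vegfa, which differ in how tightly they bind matrix.

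Vegfb (ENSMUSG00000024962, chr19:6982473-6987651, minus strand) encodes a ligand that binds FLT1 and not KDR. The KO cold pools had 61.5, 63.6 and 83.1 CPM, against 99.5, 103 and 98.7 CPM in the WT cold pools. At room temperature KO pools had 90.2, 93.5 and 103 CPM, against 118, 95.5 and 96.9 CPM in WT pools. The KO cold pools were thus below all 9 others. In the cold Vegfb was 1.45-fold lower in KO than in WT (-0.53 ± 0.11, adjusted p = 0.00074), and it fell 1.38-fold with cold in KO mice (-0.46 ± 0.11, adjusted p = 0.01). In WT mice the cold change was -0.04 (adjusted p = 0.78), and at room temperature the genotypes overlapped (-0.11, adjusted p = 0.43). The difference of cold responses, -0.42 ± 0.16, missed the threshold (adjusted p = 0.061). Under library totals alone the cold difference between genotypes was not called (-0.1, adjusted p = 0.4), and the difference of responses was called without WT room-temperature pool 1 (-0.51, adjusted p = 0.019), without KO cold pool 3 (-0.57, adjusted p = 0.0077) and by limma's voom fit (-0.6, adjusted p = 0.0017). The fall in KO mice was lost without KO room-temperature pool 6 (-0.4, adjusted p = 0.054), KO cold pool 1 (-0.38, adjusted p = 0.066), KO cold pool 2 (-0.4, adjusted p = 0.061) or both muscle-rich pools (-0.4, adjusted p = 0.059).

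Angpt1 (ENSMUSG00000022309, chr15:42424723-42676977, minus strand), the activating ligand of TEK, moved further than any other of the 10. The WT cold pools had 2.17, 1.54 and 1.79 CPM, against 17.6, 26.7 and 25.9 CPM in the WT room-temperature pools, a 12.7-fold fall with cold (-3.67 ± 0.27, adjusted p = 5.3e-07). The WT cold values rest on 58, 34 and 48 reads, and 34 was the smallest count of any of the 10 genes in a library. KO pools had 5.69, 3.12 and 4.28 CPM in the cold and 7.53, 4.51 and 5.87 CPM at room temperature, which overlap (-0.45, adjusted p = 0.24). KO mice thus lay between the 2 WT states at both temperatures. At room temperature Angpt1 was 3.92-fold lower in KO than in WT (-1.97 ± 0.24, adjusted p = 4.5e-05), and in the cold it was 2.37-fold higher (1.24 ± 0.28, adjusted p = 0.0023), with no overlap between genotypes at either temperature. The difference of cold responses was 3.21 ± 0.36 (adjusted p = 0.00014). These 4 calls held in every alternative fit, and the change in KO mice was called with no filter beyond 1 count (-0.43, adjusted p = 0.035) and by voom (-0.64, adjusted p = 0.049). An antisense gene, Gm17473, overlaps Angpt1 exons and averaged 0.101 CPM in KO cold, 0.0801 CPM in WT cold, 0.153 CPM in KO at room temperature and 0.25 CPM in WT at room temperature.

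Angpt2 (ENSMUSG00000031465, chr8:18690263-18741562, minus strand), made by endothelium and able to oppose angiopoietin-1, had the lowest CPM of the 10 in 3 of the 4 groups. Its smallest count was 36 reads, in WT room-temperature pool 1. It had 1.77, 3.04 and 3.36 CPM in KO cold pools, against 3.56, 4.13 and 4.25 CPM in WT cold pools. At room temperature it had 1.67, 1.84 and 2.05 CPM in KO pools, against 1.38, 1.51 and 1.96 CPM in WT pools. Cold raised it 2.44-fold in WT mice (1.29 ± 0.23, adjusted p = 0.00021) with no overlap, a call kept in all 23 alternative fits. In KO mice the change was 0.55 ± 0.23 with overlapping pools (adjusted p = 0.11), and it was called without KO cold pool 1 (0.79, adjusted p = 0.027). In the cold it was 1.47-fold lower in KO than in WT (-0.55 ± 0.22, adjusted p = 0.043). That last call was near the threshold. It was lost under library totals alone (-0.12, adjusted p = 0.66), with a strict filter (-0.49, adjusted p = 0.066), with only the libraries compared (-0.52, adjusted p = 0.05) and without both muscle-rich pools (-0.55, adjusted p = 0.05). It was also lost without WT cold pool 2 (-0.52, adjusted p = 0.11), WT cold pool 3 (-0.49, adjusted p = 0.12) or KO cold pool 1 (-0.32, adjusted p = 0.21), and with the 9 libraries of the paired fit taken without pairing (-0.54, adjusted p = 0.053). The difference of cold responses was -0.74 (adjusted p = 0.11). Angpt2 lies inside Mcph1 on the other strand without shared exons, and Mcph1 averaged 3.24 CPM in KO cold, 2.12 CPM in WT cold, 3.61 CPM in KO at room temperature and 6.28 CPM in WT at room temperature.

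Kdr (ENSMUSG00000062960, chr5:75932827-75978458, minus strand), the main signalling receptor for VEGF-A, passed no test with edgeR and TMM scaling over all libraries. It had 149, 179 and 196 CPM in KO cold pools, against 175, 190 and 193 CPM in WT cold pools, and 173, 153 and 148 CPM in KO room-temperature pools, against 179, 132 and 162 CPM in WT room-temperature pools. The pools overlapped in each of the 4 comparisons. Fitted changes were -0.09 ± 0.12 for KO against WT in the cold (adjusted p = 0.54), 0.00 ± 0.12 at room temperature (adjusted p = 0.99), 0.24 ± 0.12 for cold in WT (adjusted p = 0.1) and 0.15 ± 0.12 for cold in KO (adjusted p = 0.44). The rise with cold in WT was called without WT room-temperature pool 1 (0.34, adjusted p = 0.028) and by limma's voom fit (0.3, adjusted p = 0.016).

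Flt1 (ENSMUSG00000029648, chr5:147561604-147726011, minus strand) encodes the tighter-binding VEGF receptor, whose soluble form is a VEGF trap; counts per gene do not separate the forms. It had 131, 134 and 130 CPM in KO cold pools, against 97.2, 100 and 109 CPM in WT cold pools. At room temperature it had 112, 109 and 120 CPM in KO pools, against 127, 109 and 121 CPM in WT pools. KO cold pools were therefore the highest of all, and WT cold pools the lowest, touching the room-temperature range at 109 CPM. Flt1 was 1.28-fold higher in KO than in WT in the cold (0.36 ± 0.08, adjusted p = 0.0015), whereas at room temperature the genotypes overlapped (-0.07, adjusted p = 0.54). Cold lowered it 1.17-fold in WT mice (-0.22 ± 0.08, adjusted p = 0.034), with overlapping pools, and the change in KO mice was 0.20 ± 0.08 (adjusted p = 0.1), which DESeq2 called (0.21, adjusted p = 0.048). The difference of responses, 0.43 ± 0.12, passed (adjusted p = 0.013), in every alternative fit as well. The fall in WT was lost without WT room-temperature pool 1 (-0.17, adjusted p = 0.12) or 3 (-0.22, adjusted p = 0.087), or without WT cold pool 1 (-0.19, adjusted p = 0.13) or 2 (-0.21, adjusted p = 0.1), and with no filter beyond 1 count (-0.25, adjusted p = 0.059).

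Tek (ENSMUSG00000006386, chr4:94739289-94874976, plus strand) encodes the angiopoietin receptor. The KO cold pools had 62.6, 65.1 and 52.2 CPM, against 38.3, 34.2 and 36.7 CPM in the WT cold pools. At room temperature KO pools had 60.7, 68.3 and 58.0 CPM, against 48.5, 45.3 and 48.4 CPM in WT pools. KO pools were above WT pools at both temperatures without overlap. The excess was 1.65-fold in the cold (0.72 ± 0.09, adjusted p = 9.4e-06) and 1.31-fold at room temperature (0.39 ± 0.09, adjusted p = 0.0028). Cold lowered Tek 1.3-fold in WT mice (-0.38 ± 0.09, adjusted p = 0.003), and in KO mice the change was -0.06 with overlapping pools (adjusted p = 0.73). The difference of responses missed the threshold (0.32 ± 0.13, adjusted p = 0.082) and was called under 5 alternatives: library totals alone (0.55, adjusted p = 0.033), a strict filter (0.35, adjusted p = 0.047), without KO room-temperature pool 5 (0.39, adjusted p = 0.043) or KO cold pool 3 (0.41, adjusted p = 0.024), and voom (0.43, adjusted p = 0.0093). The 3 pairwise calls held in every alternative fit.

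Tie1 (ENSMUSG00000033191, chr4:118471191-118490061, minus strand), the partner receptor of TEK, followed Tek between genotypes. It had 51.6, 54.4 and 47.5 CPM in KO cold pools, against 28.9, 30 and 29.9 CPM in WT cold pools. Its room-temperature values were 65.4, 55.8 and 69.7 CPM in KO pools, against 48.8, 49.4 and 53.5 CPM in WT pools. The genotypes did not overlap at either temperature, and within each genotype the cold pools lay below the room-temperature pools. Tie1 was 1.73-fold higher in KO in the cold (0.79 ± 0.09, adjusted p = 2.4e-06), and 1.26-fold higher in the room-temperature groups (0.33 ± 0.09, adjusted p = 0.0065). Cold lowered it 1.71-fold in WT mice (-0.77 ± 0.09, adjusted p = 3.1e-06) and 1.24-fold in KO mice (-0.31 ± 0.09, adjusted p = 0.023), and the difference of responses was 0.46 ± 0.12 (adjusted p = 0.014). The room-temperature call was lost without both muscle-rich pools (0.24, adjusted p = 0.12). The fall in KO mice was lost without KO room-temperature pool 4 (-0.29, adjusted p = 0.064) or 6 (-0.24, adjusted p = 0.12), KO cold pool 1 (-0.32, adjusted p = 0.067) or 3 (-0.26, adjusted p = 0.081), or both muscle-rich pools (-0.25, adjusted p = 0.14), under library totals alone (-0.28, adjusted p = 0.13) and with only the libraries compared (-0.3, adjusted p = 0.066).

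Pecam1 (ENSMUSG00000020717, chr11:106654217-106750628, minus strand), a junction protein of all endothelium, was lowest in WT mice at room temperature. It had 200, 244 and 235 CPM in KO cold pools, against 191, 181 and 174 CPM in WT cold pools. At room temperature it had 172, 198 and 181 CPM in KO pools, against 115, 96 and 109 CPM in WT pools. The KO excess was 1.24-fold in the cold (0.31 ± 0.1, adjusted p = 0.011) and 1.72-fold at room temperature (0.78 ± 0.1, adjusted p = 1.1e-05). Cold raised Pecam1 1.71-fold in WT mice (0.77 ± 0.1, adjusted p = 7.1e-06) and 1.23-fold in KO mice (0.30 ± 0.1, adjusted p = 0.042), and the pools did not overlap in any of these 4 comparisons. The difference of responses was -0.47 ± 0.14 (adjusted p = 0.019). The excess at room temperature and the rise in WT held in every alternative fit, and the cold excess was lost without KO cold pool 2 (0.26, adjusted p = 0.063). The rise in KO mice was lost in 9 of 21 alternative fits: without KO room-temperature pool 4 or 6 (0.26 and 0.29, adjusted p = 0.13 for each), WT cold pool 1 (0.3, adjusted p = 0.052) or 2 (0.32, adjusted p = 0.054), KO cold pool 2 (0.25, adjusted p = 0.18) or 3 (0.27, adjusted p = 0.1), both muscle-rich pools (0.29, adjusted p = 0.13), and under library totals alone (0.33, adjusted p = 0.058) and with only the libraries compared (0.32, adjusted p = 0.061). The difference of responses was lost under library totals alone (-0.26, adjusted p = 0.24), and without WT room-temperature pool 2 (-0.4, adjusted p = 0.06), WT cold pool 1 (-0.43, adjusted p = 0.053) or 2 (-0.46, adjusted p = 0.051), KO cold pool 1 (-0.39, adjusted p = 0.058), or both muscle-rich pools (-0.41, adjusted p = 0.098).

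Cdh5 (ENSMUSG00000031871, chr8:104101625-104144511, plus strand), the cadherin of endothelial junctions, was higher in KO at both temperatures and passed no test of cold. KO cold pools had 166, 211 and 199 CPM, against 149, 155 and 161 CPM in WT cold pools, and KO room-temperature pools had 190, 186 and 196 CPM, against 158, 127 and 151 CPM in WT room-temperature pools. Neither comparison of genotypes overlapped. The excess was 1.24-fold in the cold (0.31 ± 0.1, adjusted p = 0.015) and 1.31-fold at room temperature (0.39 ± 0.1, adjusted p = 0.005). The fitted change with cold was 0.01 among KO pools (adjusted p = 0.96) and 0.09 among WT pools (adjusted p = 0.48). The cold excess was lost without WT cold pool 1 (0.28, adjusted p = 0.059) or KO cold pool 2 (0.24, adjusted p = 0.09), and the room-temperature excess without both muscle-rich pools (0.28, adjusted p = 0.1).

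**Figure D2:**
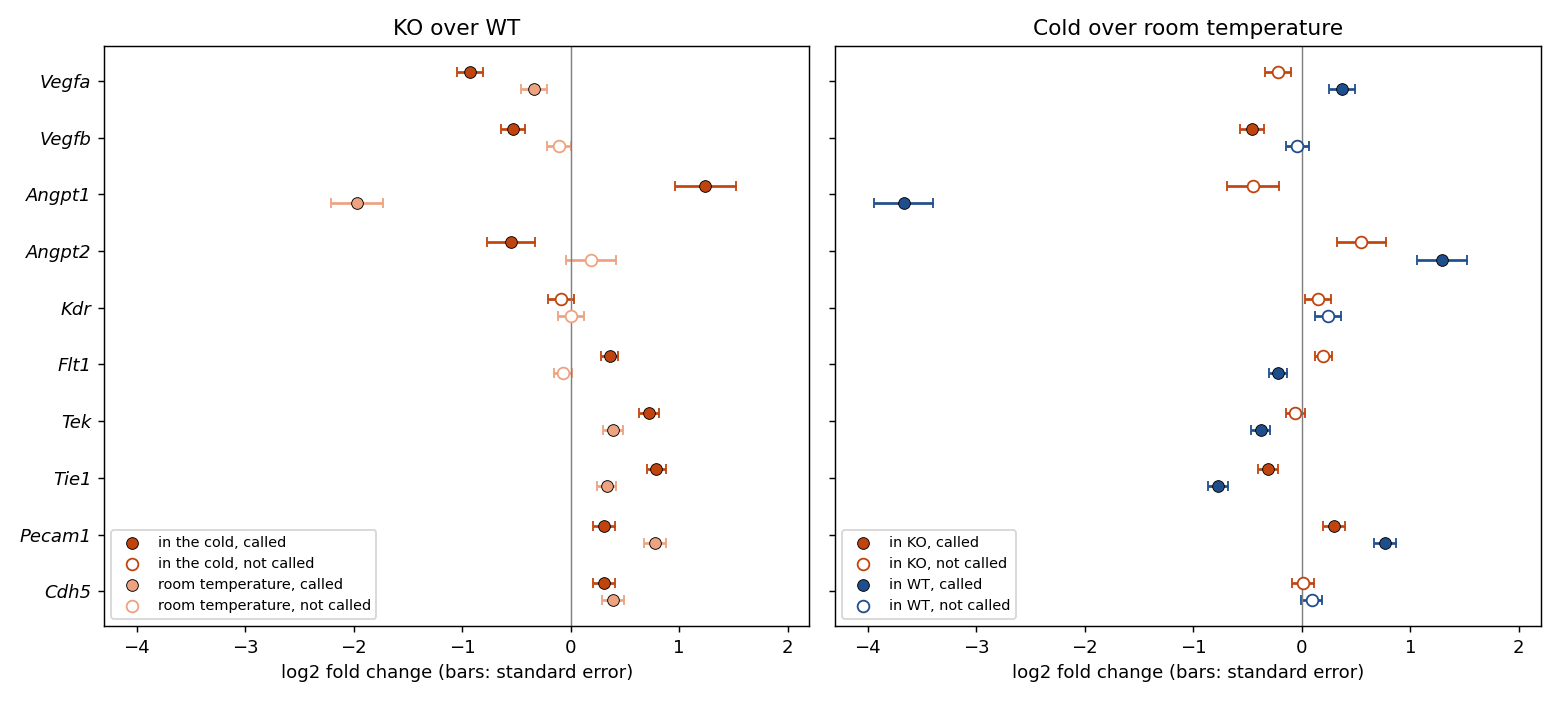
Log2 fold change with its standard error for each gene (rows), KO over WT on the left and cold over room temperature on the right; filled points have an adjusted p under 0.05 and open points do not. In the cold, Vegfa (-0.93), Vegfb (-0.53) and Angpt2 (-0.55) lie left of 0 while Angpt1 (1.24), Flt1, Tek, Tie1, Pecam1 and Cdh5 lie right of it.

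By role, in the cold the 4 ligands had 1 gene higher and 3 lower in KO, the 4 receptors 3 higher and none lower, and both junction genes were higher; the medians of the log2 fold changes were -0.54, 0.54 and 0.31, beside 0.01 for all genes tested. At room temperature no ligand was called higher and 2 were called lower (median -0.23), and 2 of the 4 receptors (median 0.17) and both junction genes (median 0.59) were called higher. The direction of some of these values depends on scaling. Under library totals alone, the median over all genes moved to 0.22 for KO against WT at room temperature, 0.45 in the cold, -0.23 for cold in WT, 0.0032 for the same contrast within KO and 0.24 for the difference of responses, and the share of calls that were higher in KO in the cold became 88.0%, against 48.3% with TMM; at room temperature it became 78.9%, against 47.9%. For cold in WT the share of calls that were higher became 27.5%, against 49.8%, and for the difference 77.1%, against 45.1%. Relative to a median of 0.45, the cold differences of Kdr (0.35, adjusted p = 0.0097) and Vegfb (-0.1, adjusted p = 0.4) still lay below the bulk of genes. Under totals alone Vegfa at -0.49 was the 1 gene of the 10 still called lower in KO in the cold, against 3 with TMM, since Vegfb and Angpt2 (-0.12, adjusted p = 0.66) were not. The 6 genes called higher with TMM were called higher under totals too, as was Kdr.

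Ratios within a pool cancel the scaling between libraries. Angpt2 over Angpt1, per length, was 0.439, 1.37 and 1.11 in KO cold pools, against 2.31, 3.78 and 3.35 in WT cold pools. At room temperature the ratio was 0.313, 0.576 and 0.494 in KO pools, against 0.11, 0.0796 and 0.107 in WT pools. Angpt2 transcript per length was thus above that of Angpt1 in all 3 WT cold pools and in 2 of the 3 KO cold pools, and in no room-temperature pool. In the cold pools these ratios rest on 34 to 225 reads of Angpt1 and 70 to 114 reads of Angpt2. Protein and TEK signalling were not measured. Vegfa over its receptor Kdr averaged 4.26 ± 0.517 in KO cold and 7.55 ± 0.753 in WT cold, and 5.43 ± 0.384 in KO at room temperature against 6.96 ± 0.734 in WT at room temperature (SD, n = 3 each). Vegfa over Cdh5 averaged 1.81 ± 0.295 in KO cold and 4.23 ± 0.504 in WT cold, with 2.1 ± 0.285 in KO and 3.5 ± 0.297 in WT at room temperature. KO pools were below WT pools in both ratios at both temperatures. Tek over Cdh5 averaged 0.282 ± 0.0518 in KO cold and 0.21 ± 0.0174 in WT cold. At room temperature it averaged 0.292 ± 0.0319 in KO and 0.293 ± 0.0233 in WT. Tie1 over Cdh5 averaged 0.23 ± 0.0323 in KO cold and 0.164 ± 0.00389 in WT cold. At room temperature it had 0.285 ± 0.0257 in KO and 0.3 ± 0.0345 in WT. Both were higher in KO than WT pools in the cold, and overlapped at room temperature. At room temperature the excess of Tek and Tie1 was thus like that of Cdh5. Flt1 over Kdr was 0.442 to 0.586 in KO cold pools, above the 0.353 to 0.379 of WT cold pools, and spanned 0.436 to 0.541 in KO and 0.475 to 0.556 in WT at room temperature. Pecam1 over Cdh5 did not separate the genotypes in the cold (0.798 ± 0.0185 in KO and 0.796 ± 0.068 in WT), and did at room temperature (0.651 ± 0.0576 in KO and 0.497 ± 0.0131 in WT). Vegfa over Vegfb averaged 1.9 ± 0.13 in KO cold and 2.49 ± 0.277 in WT cold. These ratios are descriptions and were given no test.

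**Figure D3:**
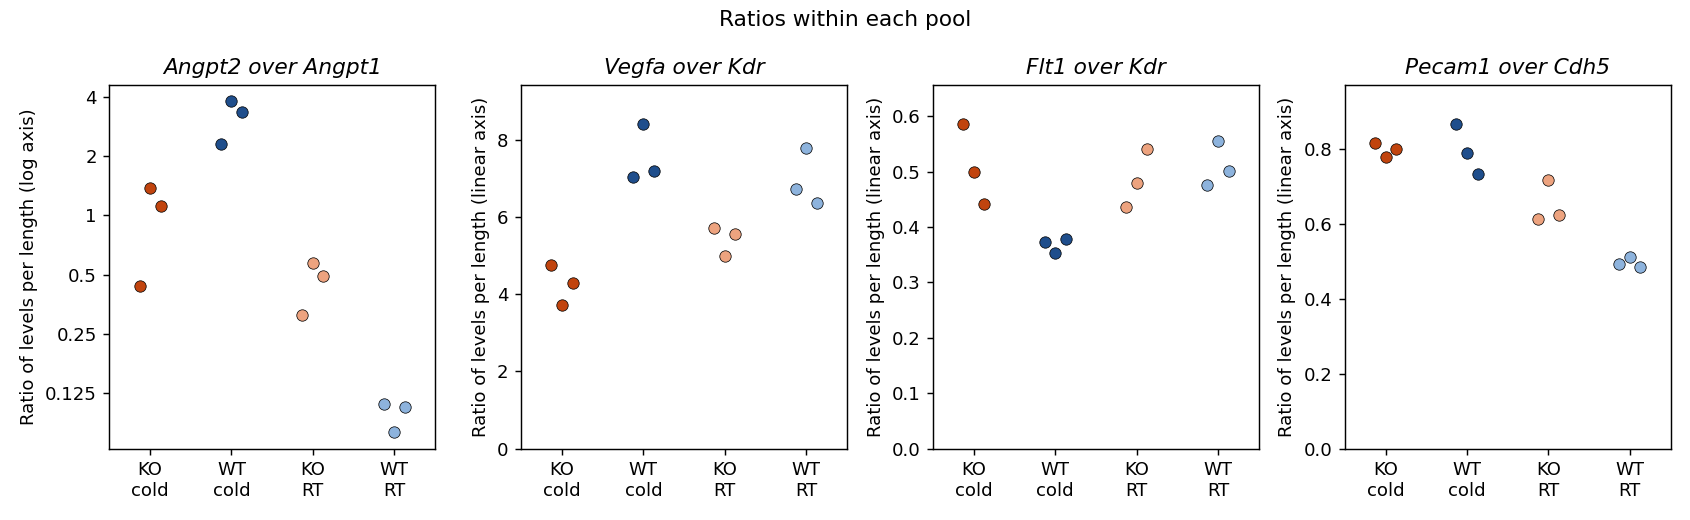
Ratios of levels per length in each pool for Angpt2 over Angpt1 (log axis), Vegfa over Kdr, Flt1 over Kdr and Pecam1 over Cdh5 (linear axes from 0), with KO cold, WT cold, KO room temperature and WT room temperature from left to right. Angpt2 over Angpt1 runs from 0.0796 in a WT room-temperature pool to 3.78 in a WT cold pool, with all KO pools between 0.313 and 1.37.

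Other genes of the VEGF and angiopoietin pathways moved both ways: of 14 listed, 13 were tested (Angpt4 was not). In KO against WT, 6 were higher and 2 lower in the cold, and 4 higher and 3 lower at room temperature. Of all genes, 53.7% were called in the cold and 40.4% at room temperature, so the share in the cold is near that of the genome. The median log2 fold changes were -0.08 and -0.04, beside 0.01 and 0.0 for all genes. Nrp1, a co-receptor for VEGF-A, fell by 0.68 on the log2 scale in KO at both temperatures, to 108 ± 7.53 CPM in KO against 173 ± 13.9 CPM in WT in the cold (adjusted p = 1.8e-05) and to 139 ± 6.97 against 222 ± 22.6 CPM at room temperature (adjusted p = 3.4e-05). Its relative Nrp2 was lower in KO in the cold (-1.01 ± 0.15, adjusted p = 0.00011). Shb, an adaptor of activated KDR, was higher in KO in the cold (0.88 ± 0.14, adjusted p = 8.3e-05), and in the room-temperature groups (0.78 ± 0.14, adjusted p = 0.00041). Nos3, the endothelial nitric oxide synthase, was higher in KO in the cold (0.61 ± 0.1, adjusted p = 8.8e-05), and in the room-temperature groups (0.32 ± 0.1, adjusted p = 0.014), and Vegfd, a ligand of the lymphatic receptor, was lower in KO at room temperature (-0.77 ± 0.23, adjusted p = 0.015). Vegfc, the ligand of FLT4, was also higher in KO in the cold, at 1.59 ± 0.285 CPM against 0.987 ± 0.114 CPM in WT (0.69 ± 0.23, adjusted p = 0.018). Without the muscle-rich pools 4 of the 13 were called at room temperature, and without KO pool 6 alone 3 were called.

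With cold, 4 of these 13 rose and 6 fell in WT mice (median -0.2), and 3 rose and 3 fell in KO mice (median -0.07). All genes had medians of -0.03 and -0.02, with 46.3% of them called in WT mice and 14.8% in KO mice. Nos3 fell in both genotypes, by 0.61 in KO mice (adjusted p = 0.00049) and by 0.90 in WT mice (adjusted p = 2e-06). Shb rose in both, by 0.79 ± 0.13 in KO mice (adjusted p = 0.0013) and by 0.70 ± 0.14 in WT (adjusted p = 0.00068), as did Rcan1, a calcineurin inhibitor induced by VEGF-A in endothelium, by 0.38 ± 0.08 in KO mice (adjusted p = 0.0066) and by 0.47 ± 0.09 in WT (adjusted p = 0.00027). Pgf, placental growth factor and another FLT1 ligand, rose in WT mice (1.67 ± 0.38, adjusted p = 0.0018) at levels of 1.16 ± 0.235 CPM in the cold and 0.35 ± 0.163 CPM at room temperature. The response differed between genotypes for Ptprb, the phosphatase that dampens TEK (0.63 ± 0.13, adjusted p = 0.0029), Plcg1, the phospholipase downstream of KDR (0.59 ± 0.12, adjusted p = 0.0027), Flt4, the VEGF-C receptor (-0.53 ± 0.16, adjusted p = 0.027), and Nrp2 (-0.64 ± 0.21, adjusted p = 0.045). These were 4 of the 13, beside 23.5% of all genes called. Ptprb rose with cold in KO mice (0.43 ± 0.09, adjusted p = 0.0058).

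Further endothelial markers were higher in KO brown fat, as Pecam1 and Cdh5 were. Of 20 listed, all tested, 19 were higher and none lower in KO at room temperature, beside 40.4% of all genes called. In the cold 17 were higher and 1 lower, beside 53.7% of all genes called. The markers had median log2 fold changes of 0.57 at room temperature and 0.49 in the cold, against 0.0 and 0.01 for all genes. Their summed level was 848 to 970 CPM in KO cold, against 664 to 721 CPM in WT cold, and 801 to 843 CPM in KO at room temperature, against 467 to 558 CPM in WT at room temperature. At room temperature the smallest p-values belonged to Eng, the endothelial TGF-beta co-receptor (0.85 ± 0.11, adjusted p = 1.3e-05), Plvap, of the diaphragms of fenestrae and caveolae (0.88 ± 0.12, adjusted p = 2.9e-05), Emcn (0.69 ± 0.1, adjusted p = 4.6e-05) and Sox18, an endothelial transcription factor (1.03 ± 0.14, adjusted p = 6.1e-05). In the cold they belonged to Sox17, a factor of arterial endothelium (0.92 ± 0.11, adjusted p = 3.4e-06), Erg, an ETS factor that maintains endothelial identity (0.61 ± 0.08, adjusted p = 1.6e-05), Clec14a (0.74 ± 0.11, adjusted p = 2.3e-05) and Emcn (0.60 ± 0.1, adjusted p = 8.3e-05). The exception in the cold was Cldn5, the tight-junction claudin, with 13.9 ± 3.58 CPM in KO and 19.6 ± 0.323 CPM in WT (-0.50 ± 0.18, adjusted p = 0.029). Without the muscle-rich pools, and so with fewer pools of each genotype, 12 of the 20 were called at room temperature, all higher.

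**Figure D4:**
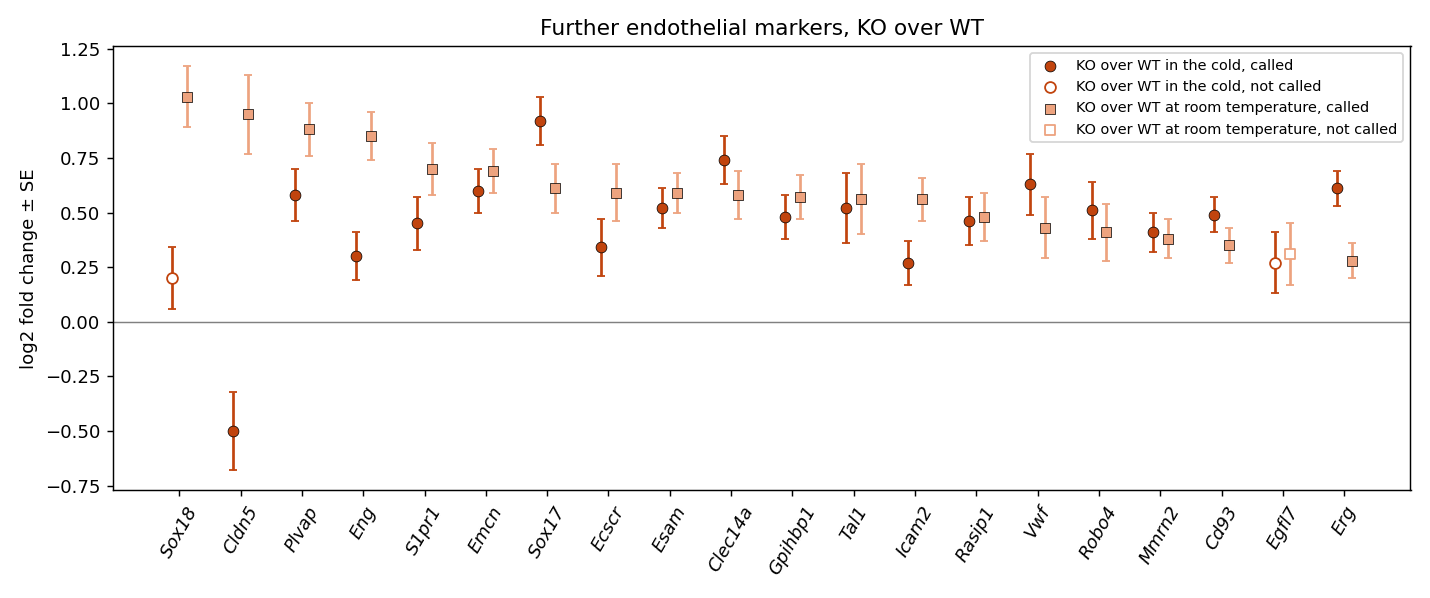
Log2 fold change of KO over WT with its standard error for 20 further endothelial markers, in the cold (circles) and at room temperature (squares), ordered by the room-temperature value; filled symbols have an adjusted p under 0.05. At room temperature 19 of 20 are called, all above 0, and in the cold Cldn5 (-0.50) is the gene called below 0.

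With cold, 8 of the 20 markers rose and none fell in WT mice, and 1 rose and none fell in KO mice. The medians were 0.17 and 0.14, beside -0.03 and -0.02 for all genes. Over all genes 46.3% were called in WT mice, 23.0% up and 23.2% down. In KO mice 14.8% were called, 7.29% up and 7.56% down. Counted in both directions, the markers were thus called no more often than all genes. In WT mice Eng (0.79 ± 0.11, adjusted p = 1.4e-05), Gpihbp1, which carries lipoprotein lipase to the capillary wall (0.62 ± 0.1, adjusted p = 8.4e-05), Cldn5 (1.14 ± 0.18, adjusted p = 0.00017) and S1pr1, the sphingosine phosphate receptor (0.54 ± 0.12, adjusted p = 0.002), had the smallest p-values. Gpihbp1 was the gene that rose in KO mice, to 129 ± 8.53 CPM in the cold against 89.2 ± 2.42 CPM at room temperature (0.53 ± 0.1, adjusted p = 0.0018). The response differed between genotypes for Cldn5 (-1.45 ± 0.25, adjusted p = 0.0014), Sox18 (-0.83 ± 0.2, adjusted p = 0.0079), Eng (-0.55 ± 0.15, adjusted p = 0.014) and Erg (0.33 ± 0.12, adjusted p = 0.048). These 4 of the 20 compare with 23.5% of all genes called. Under library totals alone, 4 of the 20 rose and 3 fell with cold in WT mice.

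Markers of other cells of the vessel wall and of the tissue also differed between genotypes. The first 3 lists hold 10 genes each. For KO against WT, 53.7% of all genes were called in the cold and 40.4% at room temperature. Of the pericyte and smooth muscle markers, 9 were higher in KO in the cold, and at room temperature 8 were higher and 1, Cspg4, was lower (-1.0 ± 0.18, adjusted p = 0.0014). They summed to 768 to 870 CPM in KO cold, against 550 to 567 CPM in WT cold, and to 786 to 880 CPM in KO at room temperature, against 630 to 685 CPM in WT at room temperature; the first of them, the pericyte receptor Pdgfrb, had 53.5 to 59.6 CPM in KO cold and 33.6 to 34.6 CPM in WT cold. With cold in WT mice this sum was thus lower, while that of the endothelial markers was higher. The sum does not stand for every pericyte and smooth muscle gene: 4 fell, 2 rose and 4 were not called, beside 46.3% of all genes called. Their median log2 fold change was -0.08, beside -0.03 for all genes. Nor does the endothelial sum stand for every endothelial gene: 8 of its 20 markers rose and 12 were not called. Outside that sum, Pecam1 rose, Kdr and Cdh5 were not called, and Flt1, Tek and Tie1 fell. Macrophage markers summed to 294 to 393 CPM in KO cold, against 114 to 119 CPM in WT cold, and to 246 to 314 CPM in KO at room temperature, against 79.3 to 107 CPM in WT at room temperature, with Adgre1 at 6.81 to 11.7 CPM in KO cold and 2.36 to 3.56 CPM in WT cold. The summed level of brown adipocyte markers was lower in KO, at 15538 to 16738 CPM in KO cold, against 30621 to 34169 CPM in WT cold, and 13703 to 16224 CPM in KO at room temperature, against 18961 to 22007 CPM in WT at room temperature. Much of the difference in these sums lay in Ucp1: in the cold 5 of the 10 markers were lower in KO and 5 were not called, and at room temperature 6 were lower and 1, the coactivator Ppargc1a, was higher (1.48 ± 0.4, adjusted p = 0.018). Counted in both directions, the share of these markers called in the cold was near that of all genes. The 8 fibroblast markers summed to 340 to 460 CPM in KO cold and 260 to 325 CPM in WT cold, and to 318 to 362 CPM in KO and 226 to 263 CPM in WT at room temperature. Erythroid markers, 6 genes, overlapped between genotypes at 304 to 364 CPM in KO cold, 253 to 366 in WT cold, 285 to 311 in KO at room temperature and 292 to 318 in WT at room temperature. The 6 lymphatic endothelial markers summed to 6.07 to 12.3 CPM in KO cold, 3.41 to 5.54 in WT cold, 6.18 to 7.56 in KO at room temperature and 4.3 to 6.43 in WT at room temperature, with the lymphatic factor Prox1 at or below 0.359 CPM throughout. No marker of these lists was at 0 in every pool of a group. The part these other cell types play in the endothelial results was not tested.

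Genes of endothelial tip cells and sprouting, 9 tested of 10 (Esm1 was not), included 5 that were higher in KO in the cold, with none lower, and at room temperature 4 higher and 2 lower, with medians of 0.4 and 0.32 beside 0.01 and 0.0 for all genes. The 5 and 6 called of 9 compare with 53.7% and 40.4% of all genes, so the share in the cold is near that of the genome. Pdgfb, which endothelium makes to recruit pericytes, was higher in KO at room temperature (0.88 ± 0.1, adjusted p = 6.1e-06), and higher again in the cold (0.34 ± 0.1, adjusted p = 0.0085). Cxcr4, a chemokine receptor that leukocytes also carry, was higher in KO in the cold (1.97 ± 0.3, adjusted p = 4.3e-05), and in the room-temperature groups (1.54 ± 0.28, adjusted p = 0.00045), as was Nid2, a basement membrane nidogen (0.53 ± 0.11 in the cold, adjusted p = 0.00059, and 0.54 ± 0.1 at room temperature, adjusted p = 0.00067). Apln, the ligand of the apelin receptor, resembled Angpt1, with 1.29 ± 0.288 CPM in KO cold, 1.1 ± 0.15 CPM in WT cold, 1.9 ± 0.988 CPM in KO at room temperature and 5.97 ± 1.17 CPM in WT at room temperature. It fell with cold in WT mice (-2.44 ± 0.31, adjusted p = 1e-05) and was lower in KO at room temperature (-1.64 ± 0.28, adjusted p = 0.00031). Its receptor Aplnr also fell with cold in WT mice (-2.42 ± 0.48, adjusted p = 0.003). With cold 1 of the 9 rose and 2 fell in WT mice, beside 46.3% of all genes called. In KO mice edgeR called 0, with 3 at an unadjusted p under 0.05, while DESeq2 called 3 and limma's voom fit 2. Of all genes, edgeR called 14.8% in KO mice. The response differed between genotypes for Apln (1.86 ± 0.43, adjusted p = 0.0056), Pdgfb (-0.53 ± 0.14, adjusted p = 0.012) and Notch4, an endothelial Notch receptor (0.53 ± 0.17, adjusted p = 0.033). These 3 of the 9 compare with 23.5% of all genes called.

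Hypoxia factors and their targets, 15 tested of 16 (Car9 was not), split in KO against WT: 3 were higher and 5 lower in the cold, with a median of -0.14, and 4 were higher and 5 lower at room temperature, with a median of -0.23. All genes had medians of 0.01 and 0.0, and 53.7% and 40.4% of them were called, so that the 8 of 15 in the cold is at the share of the genome and no result about the list. Hif1a, whose product activates Vegfa in hypoxia, was lower in KO in the cold, at 14.2 ± 0.159 CPM against 24.4 ± 1.95 CPM in WT (-0.78 ± 0.1, adjusted p = 1.1e-05). It was also lower in KO at room temperature (-0.45 ± 0.1, adjusted p = 0.0024). Epas1, another listed hypoxia factor, had 353 ± 16 CPM in KO cold and 348 ± 22.9 CPM in WT cold. It was not called for genotype in the cold (0.02, adjusted p = 0.83) or at room temperature (-0.08, adjusted p = 0.47). The part of these factors in the Vegfa result was not tested. Other targets went their own ways: Ndrg1 (1.03 ± 0.09, adjusted p = 2.2e-07) and Pdk1, a kinase that holds back pyruvate oxidation (1.14 ± 0.1, adjusted p = 2.2e-07), were higher in KO in the cold, and P4ha1, a collagen prolyl hydroxylase, was lower (-0.83 ± 0.13, adjusted p = 6.2e-05). At room temperature Ndrg1 (0.74 ± 0.09, adjusted p = 1.1e-05), Egln3, an oxygen-sensing hydroxylase (0.72 ± 0.11, adjusted p = 6.9e-05), and P4ha1 (0.78 ± 0.13, adjusted p = 0.00025) were higher in KO and Arnt, the partner of the hypoxia factors, was lower (-0.46 ± 0.07, adjusted p = 0.00013). With cold, 6 rose and 3 fell in WT mice and 5 rose and none fell in KO mice, beside 46.3% and 14.8% of all genes called. P4ha1 had the smallest p-value in both, rising by 1.15 ± 0.13 in KO mice (adjusted p = 3.2e-05) and by 2.75 ± 0.13 in WT (adjusted p = 1.3e-09), and Slc2a1, a glucose transporter, rose by 0.75 ± 0.18 in KO mice (adjusted p = 0.0091) and by 0.90 ± 0.18 in WT (adjusted p = 0.00051). The response differed for P4ha1 (-1.60 ± 0.18, adjusted p = 4.2e-05), Pdk1 (0.76 ± 0.14, adjusted p = 0.0012) and Egln3 (-0.48 ± 0.15, adjusted p = 0.027). These 3 of the 15 compare with 23.5% of all genes called.

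The genes whose pattern over the 12 pools was most like that of 5 of the genes were found among 10340 genes averaging a log2 CPM of 1 or more, by the root-mean-square difference of centred log2 CPM. Genes with a predicted or clone-based name and mitochondrially encoded genes were left out of the 10340. For Pecam1 the nearest were Eng (0.067), Pdgfb (0.0994) and Nlgn2 (0.104), where the spread of Pecam1 itself was 0.413. For Vegfa they were Pbx2 (0.0902), Ntmt1 (0.0978) and Idh3g (0.0997), the last a subunit of mitochondrial isocitrate dehydrogenase, beside a spread of 0.379. Vegfb was nearest to Tfb2m, a mitochondrial transcription factor (0.0857), Kxd1 (0.0982) and Cops7a (0.102), with a spread of 0.266. Kdr was nearest to Pqbp1 (0.0903), Grn (0.0919) and Smarce1 (0.0976), with a spread of 0.171. Angpt2 was nearest to Nop2 (0.193), Mindy1 (0.223) and Cav1, the caveolar coat protein (0.233), with a spread of 0.534. The 12 pools share their libraries and the 4 group means, so these distances are descriptions.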

How the data were processed

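Interscapular brown fat RNA was counted in 12 libraries of 4 groups, 3 pools of 2 mice each. The authors deposited raw read counts per gene; STAR, HTSeq and GRCm38 are listed in the submitters' processing notes, without versions, and a reverse-strand setting is named only in the deposited files' names. The library kit is not given in the sources used here. Each library had 53379 gene identifiers and 5 summary lines, which were left out of library sizes (reads in no feature 1.64% to 2.26%, ambiguous 1.07% to 1.37%, not aligned 1.12% to 1.86% and not uniquely aligned 26.6% to 30.2% of all lines summed). Reads aligning to more than 1 place were thus not counted in genes.

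Counts were fitted with edgeR 4.0.16 in R 4.3.3 (filterByExpr, TMM scaling, glmQLFit with robust estimation, glmQLFTest) on all 12 libraries with 1 mean per group, leaving 15208 genes, and p-values were adjusted over them by Benjamini-Hochberg with a threshold of 0.05. The common biological coefficient of variation was 13.6%. Standard errors of log2 fold changes were taken from the F statistic of each test, as the size of the change over the root of F. The prior count was 0.125. RPKM used exon lengths of GENCODE's GRCm38 annotation. DESeq2 1.42.0 and limma 3.58.1 (voom with sample weights) were alternatives, as were other scalings, filters, sample subsets and leaving out each library. Python 3.11.15 made the summaries. The fit was tested on simulated counts in which few genes changed and the spread was fixed. That test cannot speak to the choice of scaling where many genes change.

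The 10 genes and the lists were chosen with earlier results of these data known. Named from each pathway list are up to 4 genes with the smallest p in each comparison, and from each marker list the sum and the first marker; other genes were named by role or as a single exception, after their values were seen. The labels call the libraries biological triplicates. Pairs of libraries of 1 group differed beyond counting error, with a chi-square per degree of freedom of 11.3 to 98.5. The largest values, 98.5 and 70.8, came from the pairs that hold WT room-temperature pool 1. The other pair of that group had 20.1. Pool 1 also had a TMM factor of 0.847, against 1.02 in WT room-temperature pool 2 and 0.999 in pool 3. P-values measure the spread between pools, which average 2 mice each.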

Additional observations from a re-analysis of the deposited data

Results flagged for a closer look

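The cold response differed between KO and WT, by the test of the difference itself (edgeR's quasi-likelihood test, adjusted p under 0.05 over all genes), for 5 of the 10 genes and for 14 listed genes around them. The 14 were 4 of 13 pathway genes, 4 of 20 endothelial markers, 3 of 9 sprouting genes and 3 of 15 hypoxia genes. The same test called 23.5% of all genes. The counts of the 4 lists lie around that share and are no result about the lists. The values below are log2 differences, the cold response in KO minus that in WT. Among the 10 they were 3.21 for Angpt1, 0.46 for Tie1, 0.43 for Flt1, -0.47 for Pecam1 and -0.59 for Vegfa. In the pathway they were 0.63 for Ptprb, 0.59 for Plcg1, -0.53 for Flt4 and -0.64 for Nrp2. Further endothelial markers had 0.33 for Erg, -0.55 for Eng, -0.83 for Sox18 and -1.45 for Cldn5. Sprouting genes had 1.86 for Apln, 0.53 for Notch4 and -0.53 for Pdgfb. Hypoxia genes had 0.76 for Pdk1, -0.48 for Egln3 and -1.6 for P4ha1.

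Angpt1 and Apln share a shape, in which WT room-temperature pools stood above the 9 others. Both are low in counts, at 1.1 to 5.97 CPM on average for Apln and 1.83 to 23.4 CPM for Angpt1. The fitted cold changes of Flt1 had opposite signs, 0.20 in KO and -0.22 in WT. The one in KO was not called. The one in WT was called with overlapping pools and was lost in 5 of 23 alternative fits. Groups of 3 pools are too small for a test of single outlying pools.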

How the results depend on the processing

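Of 1080 refitted values of the 10 genes, 982 kept their side of the threshold without a counted change of sign. A further 64 lost a call, 14 gained one with the same sign and 20 changed sign, none of the last from a called value. Among the 20, Kdr for genotype in the cold was also called under library totals alone (0.35, adjusted p = 0.0097). For genotype at room temperature Kdr had a main value of 0.00, so its refits, from -0.11 to 0.23, could not count as a change of sign. Of 324 refitted counts, 290 stayed within 1.5 times the main count. Without both muscle-rich pools, the genes called at room temperature were 3 of the 10, 4 of the other pathway genes and 12 further endothelial markers; for cold in KO mice they were 0 of the 10 (edgeR, with 5 at an unadjusted p under 0.05; DESeq2 and voom on all libraries called 4 each) and 2 markers; for the difference they were 3, 2 and 2. For cold in KO mice, 1 of the 10 was called under library totals alone and 1 when only the libraries compared were fitted. Further endothelial markers called for cold in KO mice were 2 under median-ratio size factors, 5 with no filter beyond 1 count, 3 with a strict filter, 4 with DESeq2 and 5 with voom.

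Leaving out each library in turn gave 5 to 6 of the 10 at room temperature, 0 to 3 for cold in KO and 3 to 7 for the difference; for the other pathway genes 3 to 7 at room temperature and 2 to 4 for the difference; and 1 to 4 further endothelial markers for cold in KO. The 0 came without KO room-temperature pool 6, with 5 at an unadjusted p under 0.05.

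Values that changed sign were, under library totals alone, Vegfb 0.11 and Flt1 0.15 (genotype, room temperature), Kdr 0.35 (genotype, cold), Cdh5 -0.1 (cold in WT), and Kdr 0.12 and Cdh5 0.13 (difference). Under voom they were Vegfb 0.02 (cold in WT) and Tek 0.04 (cold in KO), and without both muscle-rich pools Cdh5 0.03 (difference). Values near 0 also crossed it with 1 library left out: Kdr ranged over -0.18 to 0.01 (genotype, cold), Vegfb over -0.1 to 0.06 (cold in WT), Tek over -0.12 to 0.03 and Cdh5 over -0.07 to 0.11 (cold in KO), and Kdr over -0.18 to 0.02 and Cdh5 over -0.16 to 0.01 (difference). The cause was not tested.

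A replicate block could be fitted only on the 9 libraries that share numbers 1 to 3, which leaves out KO at room temperature. Same-numbered pools did not deviate together (correlations of deviations -0.306 to 0.229). With the replicate block 9 of the 10 genes were called for genotype in the cold and 7 for cold in WT; without the block on those 9 libraries, a fit added after seeing the data, 8 and 7 were called.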
